A study of Mus musculus with 6 samples.

Results

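The imprinted fetal growth genes described here are Igf2, H19, Plagl1, Peg3, Ndn and Cdkn1c. They were measured by 15 probes, which are all the spots of arrays A and B whose only annotated symbol is one of these names, dim spots included. The arrays named 7151 genes singly, through 9663 probes. H19 had 7 of the 15 probes, Peg3 3, Igf2 2, and Plagl1, Ndn and Cdkn1c 1 each. Liver total RNA came from 3 male mice, with 1 mouse per group. A calorie-restricted mouse (CR) was killed at 177 days and a mouse fed ad libitum (AL) at 174 days, both of the 2nd age group, and another ad libitum mouse at 17 days, of the 1st age group. The unit of the 17-day age rests on its label alone, and no strain, genotype or length of restriction is given in the sources used here. Each liver was hybridised to array A and to array B, which carry different probes and are therefore no replicates of each other.

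An imprinted gene is transcribed mainly from the copy inherited from 1 parent, a choice set by DNA methylation laid down in the germ line. Many of these genes act on growth before birth: as a rule, genes expressed from the paternal copy promote it and genes expressed from the maternal copy restrain it. Igf2 (paternal) encodes insulin-like growth factor 2, a fetal growth factor that signals through the insulin-like growth factor receptor, and H19 (maternal) is a noncoding RNA from the neighbouring gene that uses the same enhancers. Plagl1 and Peg3 (both paternal) encode zinc finger proteins, Ndn (paternal) encodes necdin, a growth-restraining protein of the MAGE family, and Cdkn1c (maternal) encodes p57, an inhibitor of cyclin-dependent kinases. In the mouse several of them, Igf2 and H19 among them, are abundant in fetal liver and are known to be turned down after birth.

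In RefSeq's annotation of GRCm38.p6, 5 of the 6 genes lie on chromosome 7 and Plagl1 on chromosome 10. Ordered by start, 2 annotated genes stand between H19 and Igf2 (Mir675 and Gm33148) and 18 between Igf2 and Cdkn1c. The microRNA gene Mir675 lies inside H19 and Mir483 inside Igf2. Their mature sequences are shown because a spot that reads the host RNA does not report the microRNA cut from it, which was not measured here. The seed, bases 2 to 8, is in capitals, and among 1679 mature mouse microRNAs of the RefSeq table each of the 4 seeds occurs in its own microRNA alone.
mmu-miR-675-5p, GRCm38.p6, chr7:142577112-142577133, minus strand: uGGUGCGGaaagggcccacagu
mmu-miR-675-3p, GRCm38.p6, chr7:142577078-142577099, minus strand: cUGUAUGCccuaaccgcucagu
mmu-miR-483-5p, GRCm38.p6, chr7:142654968-142654989, minus strand: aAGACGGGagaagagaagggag
mmu-miR-483-3p, GRCm38.p6, chr7:142654932-142654952, minus strand: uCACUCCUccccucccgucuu

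Promoters of 4 of the genes are held by the RefSeq table, and they are shown because imprints lie at CG dinucleotides, which are in capitals. Each window of 300 bases ends 50 bases past an annotated start. Of 32851 such windows in the mouse, 94.6% hold a CG, with a median of 7 CGs. The motif CG reads the same on both strands. Plagl1 had 26 CGs (16.9% of windows have as many or more), Peg3 13 (37.9%) and Ndn 11 (41.4%), whereas the 4 annotated starts of Igf2 ranged from 2 (85.9%) to 24 (20.0%). The Igf2 windows with the most and the fewest CGs are given first. The arrays measured neither methylation nor which start was used.
Igf2, GRCm38.p6, chr7:142658755-142659054, minus strand: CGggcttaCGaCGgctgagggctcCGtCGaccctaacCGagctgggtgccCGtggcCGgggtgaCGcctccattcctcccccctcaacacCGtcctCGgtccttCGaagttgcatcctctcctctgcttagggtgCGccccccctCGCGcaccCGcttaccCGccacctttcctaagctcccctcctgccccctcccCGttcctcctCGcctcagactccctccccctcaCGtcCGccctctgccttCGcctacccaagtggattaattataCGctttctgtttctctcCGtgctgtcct
Igf2, GRCm38.p6, chr7:142666767-142667066, minus strand: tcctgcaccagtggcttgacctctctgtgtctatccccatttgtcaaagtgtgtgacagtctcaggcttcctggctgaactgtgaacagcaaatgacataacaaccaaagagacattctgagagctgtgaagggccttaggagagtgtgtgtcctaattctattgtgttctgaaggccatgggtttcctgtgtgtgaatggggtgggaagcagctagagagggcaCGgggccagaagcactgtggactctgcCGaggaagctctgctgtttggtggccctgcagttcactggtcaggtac
Plagl1, GRCm38.p6, chr10:13090582-13090881, plus strand: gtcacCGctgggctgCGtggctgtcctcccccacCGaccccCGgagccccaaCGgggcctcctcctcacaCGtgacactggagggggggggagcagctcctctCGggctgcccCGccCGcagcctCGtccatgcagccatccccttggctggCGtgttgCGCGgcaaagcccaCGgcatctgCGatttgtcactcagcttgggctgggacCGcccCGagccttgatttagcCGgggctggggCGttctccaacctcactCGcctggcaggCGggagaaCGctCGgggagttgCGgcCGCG
Peg3, GRCm38.p6, chr7:6730370-6730669, minus strand: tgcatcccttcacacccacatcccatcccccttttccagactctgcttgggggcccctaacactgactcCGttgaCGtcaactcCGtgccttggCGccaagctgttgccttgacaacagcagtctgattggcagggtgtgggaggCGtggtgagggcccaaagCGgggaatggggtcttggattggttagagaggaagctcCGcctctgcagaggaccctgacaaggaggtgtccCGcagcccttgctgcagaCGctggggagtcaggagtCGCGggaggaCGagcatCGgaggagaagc
Ndn, GRCm38.p6, chr7:62348027-62348326, plus strand: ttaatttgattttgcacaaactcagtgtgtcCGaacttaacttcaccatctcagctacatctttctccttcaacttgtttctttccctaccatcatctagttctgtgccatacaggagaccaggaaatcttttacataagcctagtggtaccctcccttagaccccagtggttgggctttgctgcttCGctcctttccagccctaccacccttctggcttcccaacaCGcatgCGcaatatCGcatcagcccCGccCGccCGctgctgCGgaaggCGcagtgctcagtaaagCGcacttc

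The 3 arrays of a kind differed in brightness. The calorie-restricted mouse had a median intensity of 375.0 on array A and 332.8 on array B, the 174-day mouse 35.8 and 60.8, and the 17-day mouse 364.3 and 402.5. The 174-day arrays were thus the dimmest of both kinds, and both comparisons that use them rest on that 1 mouse. Values were therefore compared after quantile normalization on the log2 scale. Of 13 hepatocyte genes 5 were measured, and the spots of Alb, Apoa1, Serpina1e and Ttr lay at or above the 96.5th percentile of level and that of Apob at the 42.8th. Of 9663 named probes, those of the same gene differed among themselves with a pooled SD of 0.54 log2 in the age comparison, 0.65 in the diet comparison and 0.41 between the calorie-restricted and the 17-day mouse (1858 genes with at least 2 probes). The median SD per gene was smaller, at 0.31, 0.42 and 0.28 in the same order. These are spreads between spots and not between animals. Since no group has a second mouse, no difference below carries an error between animals or a test.

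**Figure D1:**
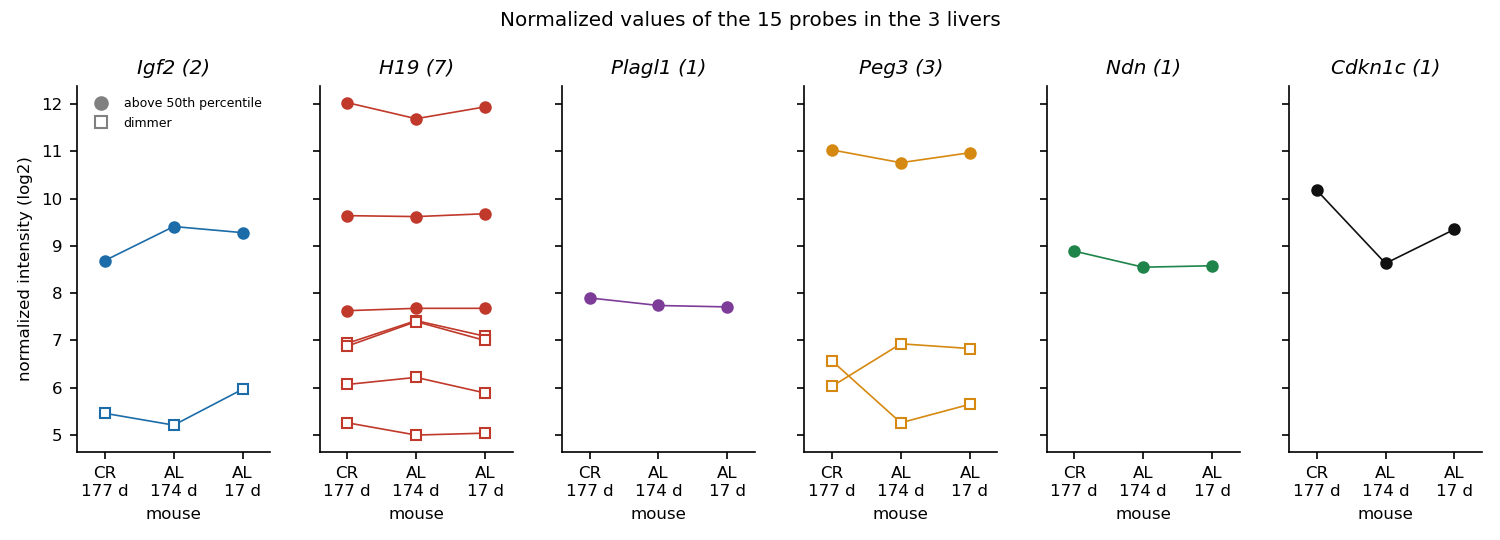
Normalized log2 intensity of the 15 probes (number per gene in parentheses) in the calorie-restricted mouse of 177 days, the ad libitum mouse of 174 days and that of 17 days. A line joins the 3 values of 1 spot; filled circles are spots above the 50th percentile of level and open squares are dimmer ones; heights of different spots are not comparable as amounts. The H19 lines are nearly flat, with the topmost between 11.69 and 12.03, and the Cdkn1c line is lowest at 8.63 in the 174-day mouse.

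The first comparison, of the 174-day with the 17-day mouse on the ad libitum diet, asks how expression differed with age. No member probe was 2-fold apart, where 4.33% of all named probes were. The 15 differences ran from -0.75 (Igf2) to 0.40 (H19) on the log2 scale, with 6 above and 9 below 0 and a median of -0.03, against 0.00 over all named probes. Of the 15, 13 lay within 0.5 of 0, as did 77.0% of all named probes. Cdkn1c at -0.71 and the dimmer Igf2 spot at -0.75 were the exceptions.

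The second comparison, of the calorie-restricted with the 174-day mouse, asks how expression differed with diet. Here 2 of 15 probes were at least 2-fold higher, those of Cdkn1c (1.55 log2) and of the dimmest Peg3 spot (1.30), where 4.05% of all named probes were. None was 2-fold lower, where 5.32% were. The median was 0.16 over the members, with 9 above and 6 below 0, and -0.01 over all named probes. Of all probes past 2-fold in the diet comparison, 56.8% were lower in the calorie-restricted mouse with quantile normalization and 73.5% with each array centred on its median.

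The third comparison set the calorie-restricted mouse against the 17-day mouse, which differ in both age and diet. The 174-day mouse is in neither group here, but its dim arrays still enter the quantile normalization of all 3. No member probe was 2-fold apart, where 1.65% of all named probes were. The differences ran from -0.80 to 0.92, both ends being Peg3 spots, with 8 above and 7 below 0 and a median of 0.05. Each comparison shares a mouse with the other 2, so their values for a gene are set side by side only. Of all probes past 2-fold here, 68.6% were lower in the calorie-restricted mouse, and 81.3% after a correction for spot position. In bulk liver, fewer cells of a type and less RNA per cell cannot be told apart.

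**Figure D2:**
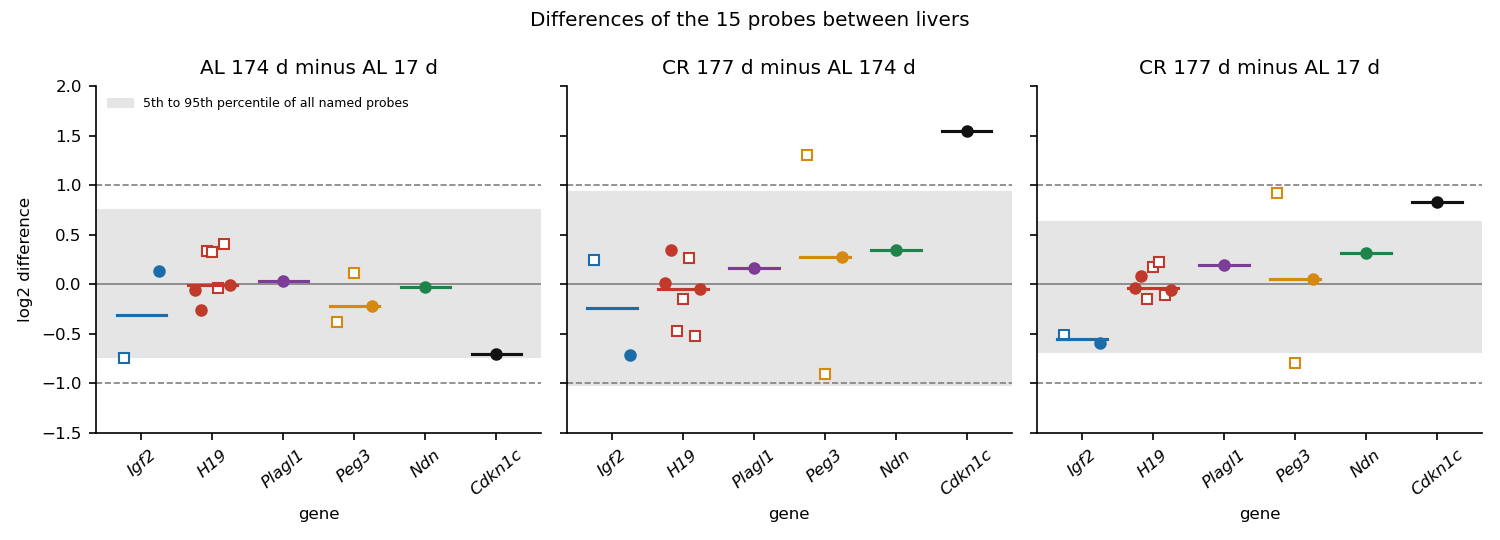
Log2 difference of each of the 15 probes in the 3 comparisons, by gene. Filled circles are spots above the 50th percentile of level and open squares dimmer ones, a bar is the median over a gene's probes, dashed lines mark 2-fold, and the grey band spans the 5th to the 95th percentile of all named probes. Cdkn1c (1.55) and a dim Peg3 spot (1.30) lie above the upper dashed line in the diet comparison, and no other point crosses a dashed line.

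Igf2, the growth factor, was read by a brighter spot on array B and a dim one on array A. The brighter spot (spot 10702, at the 75.9th percentile of level) had an intensity of 646 in the CR liver, 236 in the 174-day AL liver and 1190 in the 17-day AL liver. In units of each array's median these were 1.94, 3.88 and 2.96. After normalization the values were 8.69, 9.41 and 9.28 log2, so the calorie-restricted mouse was the lowest and the ad libitum mice were close to each other. The differences were 0.13 by age, -0.72 by diet and -0.59 between the calorie-restricted and the 17-day mouse. After the correction for spot position they were smaller, at -0.09, -0.19 and -0.28 in the same order. With each array centred on its median they were 0.39 by age and -0.61 in the third comparison. By diet the difference was then larger, just under 2-fold. The calorie-restricted mouse was the lowest in each of these settings, but the size of its differences depended on the setting.

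The dim Igf2 spot (spot 6628, at the 11.7th percentile) read 96.1 in the CR liver, 7.75 in the 174-day AL liver and 135 in the 17-day AL liver. Its normalized values were 5.46, 5.21 and 5.97, with the 17-day mouse highest and a difference of -0.75 by age and 0.24 by diet. The spots thus had opposite signs in the age and the diet comparison. In the third comparison they were at -0.59 and -0.51, the same sign on both arrays, with an SD of 0.05 log2 over the 2 spots. As the median of its probes Igf2 was at -0.31 by age, -0.24 by diet and -0.55 in the third comparison. There it was below 0 in all 13 alternative settings, from -0.69 to -0.29. Since both spots were below 0, settings that only select probes, arrays or spots could not turn that sign. The count of 13 is therefore no measure of stability. By diet Igf2 was at 0.09 after a correction for spot position.

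H19, the noncoding RNA, stayed within 2-fold between any of the 3 livers on each of its 7 spots, with log2 differences from -0.52 to 0.40. The brightest (spot 8789, at the 97.9th percentile, array B) had an intensity of 5021 in the CR liver, 1428 in the 174-day AL liver and 7569 in the 17-day AL liver, or 15.1, 23.5 and 18.8 times the array median. Normalized, these were 12.03, 11.69 and 11.94 log2. The array A spot (spot 134, at the 87.5th percentile) read 1683 in the CR liver, 193 in the 174-day AL liver and 1569 in the 17-day AL liver, or 4.49, 5.40 and 4.31 times its median. Its normalized values of 9.64, 9.62 and 9.68 span less than 0.1. Another spot (spot 15084, at the 50.3rd percentile) was at 7.63, 7.68 and 7.68, with intensities of 326 in the CR liver, 61.9 in the 174-day AL liver and 411 in the 17-day AL liver.

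The 4 dimmer H19 spots lay between the 8.13th and the 39.6th percentile of level. Over all 7 spots the age difference ran from -0.26 to 0.40 with a median of -0.01, the diet difference from -0.52 to 0.34 with a median of -0.05, and the third difference from -0.15 to 0.22 with a median of -0.04. In each comparison 3 spots were above and 4 below 0, and none of the 21 differences reached the pooled SD between probes of a gene. Some passed the smaller median SD per gene, 0.31 by age and 0.42 by diet. No mouse was the highest throughout: it was the calorie-restricted mouse on 2 spots, the 174-day on 3 and the 17-day on 2. The SD over the H19 spots was 0.25 by age, 0.33 by diet and 0.14 in the third comparison. The 32 genes with at least 5 probes, H19 included, had median SDs of 0.36, 0.45 and 0.33.

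The sign of the brightest H19 spots depended on the scaling. With loess scaling, spot 8789 was at -0.22 by age and 0.31 by diet, close to its values with quantile normalization. Spot 134 was at -0.01 and -0.03 with loess scaling. With each array centred on its median, spot 8789 was at 0.32 and spot 134 at 0.33 by age, against -0.26 and -0.06 with quantile normalization. By diet they were at -0.64 and -0.27, against 0.34 and 0.01. The gene median was then 0.28 by age and -0.27 by diet, and by diet it was 0.32 after the correction for spot position. In no setting that scaled the arrays did H19 come to 2-fold in any comparison.

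Plagl1, a transcription factor whose known targets include other imprinted genes, had 1 spot near the middle of array B (52.8th percentile). It read 389 in the CR liver, 65.1 in the 174-day AL liver and 420 in the 17-day AL liver, which is 1.17, 1.07 and 1.04 times the array median. The normalized values were 7.90, 7.74 and 7.71. The differences were 0.03 by age, 0.16 by diet and 0.19 in the third comparison, all smaller than the spread between probes of a gene.

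Peg3, a zinc finger protein linked to growth, maternal behaviour and cell death in the mouse, had 3 spots on array B that did not go together. The brightest (spot 15583, at the 93.8th percentile) read 2534 in the CR liver, 716 in the 174-day AL liver and 3869 in the 17-day AL liver, with normalized values of 11.03, 10.76 and 10.97. Its differences were -0.22 by age, 0.27 by diet and 0.05 in the third comparison. With loess scaling they were close to these, at -0.19, 0.19 and 0.01. With each array centred on its median they were 0.29, -0.63 and -0.34. After the correction for spot position they were -0.32, 0.71 and 0.39, so that the sign and the size of each depended on the setting.

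The dimmest Peg3 spot (spot 12385, at the 15.8th percentile) read 158 in the CR liver, 11.3 in the 174-day AL liver and 104 in the 17-day AL liver. Its normalized values were 6.57, 5.26 and 5.65, with the calorie-restricted mouse the highest. The other dim spot (spot 15373, at the 28.4th percentile) read 109 in the CR liver, 36.4 in the 174-day AL liver and 230 in the 17-day AL liver, or 6.03, 6.93 and 6.83 normalized, with the calorie-restricted mouse the lowest. By diet these spots were at 1.30 and -0.91, and in the third comparison at 0.92 and -0.80. Their SD with the bright spot was 1.11 by diet, against a pooled 0.65 for probes of a gene. Among named probes in the lowest 25% by level, 5.71% were at least 2-fold higher by diet. After the correction for spot position they were at 1.35 and -0.07. As the median of its probes Peg3 was at 0.27 by diet, but at -0.63 with each array centred on its median and at 0.71 after the correction for position.

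Ndn, the gene of necdin, had 1 spot, on array A (74.9th percentile). It read 1040 in the CR liver, 82.8 in the 174-day AL liver and 788 in the 17-day AL liver, or 2.77, 2.31 and 2.16 times the array median. Normalized, the values were 8.89, 8.55 and 8.58, the calorie-restricted mouse being the highest. The differences were -0.03 by age, 0.34 by diet and 0.31 in the third comparison, within the spread between probes of a gene, and the last 2 were 0.06 and 0.01 after the correction for spot position.

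Cdkn1c, the kinase inhibitor, stood farthest from the other members. Its single spot (spot 9089, array B, 79.6th percentile) read 1592 in the CR liver, 129 in the 174-day AL liver and 1237 in the 17-day AL liver. In units of the array median these were 4.78, 2.12 and 3.07, and normalized they were 10.18, 8.63 and 9.35 log2. The 174-day mouse was therefore the lowest, the 17-day mouse intermediate and the calorie-restricted mouse the highest.

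By diet Cdkn1c was 1.55 log2 higher in the calorie-restricted mouse, which is 2.92-fold and at the 99.5th percentile of all named probes. Among named probes in the top 25% by level, where this spot lies, 1.69% were at least 2-fold higher. By age it was at -0.71 (5.61st percentile), and in the third comparison at 0.83 (98.4th percentile). The signs held in all 12 alternative settings. Those that select probes, arrays or spots could not change the value of a single spot that they kept. The floor settings left the values as they were, so the count of 12 is no measure of stability. The size did not hold: by diet it was 1.17 with each array centred on its median and 0.88, below 2-fold, after the correction for spot position. The third value was 0.64 with median centring, 0.43 after the correction for position and 0.36 without scaling, and the age value -0.54 with median centring and -0.45 after the correction. No other Cdkn1c probe was analysed here against which the spot could be checked.

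Of the 7 lists of cell type markers with a measured gene, the medians of 2 had the order of Cdkn1c over the 3 mice on the normalized scale. The hepatocyte median was -0.10 by age, 0.26 by diet and 0.16 in the third comparison. The Kupffer cell and leukocyte median was -0.10, 0.17 and 0.08. Single genes of these lists differed. Alb and Ttr had the order of Cdkn1c, whereas Apoa1, Apob and Serpina1e did not, Serpina1e being at -0.46 by diet. Cd74 had that order, whereas Lyz2, C1qa and C1qb did not. By diet the hepatocyte median was 0.55 after the correction for spot position and -0.62 with each array centred on its median. The other 5 lists had diet medians from -0.15 to -0.09. Summed over a list in units of the array median, the 7 lists ranged from 2.81 (bile duct) to 122 (hepatocyte) in the CR liver. The range was 3.84 to 176 in the 174-day AL liver and 3.34 to 135 in the 17-day AL liver. Each list was highest in the 174-day mouse. These sums are not quantile-normalized, and lists as unlike as hepatocyte and bile duct shared that order, so they are not read as amounts of cells. The lists held 5 of 13 hepatocyte, 4 of 9 erythroid, 4 of 10 Kupffer cell and leukocyte, 6 of 9 stellate cell and fibroblast, 3 of 8 endothelial, 3 of 5 bile duct and 1 of 6 kidney and adrenal genes. The part of cell composition in the Cdkn1c values was not tested.

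**Figure D3:**
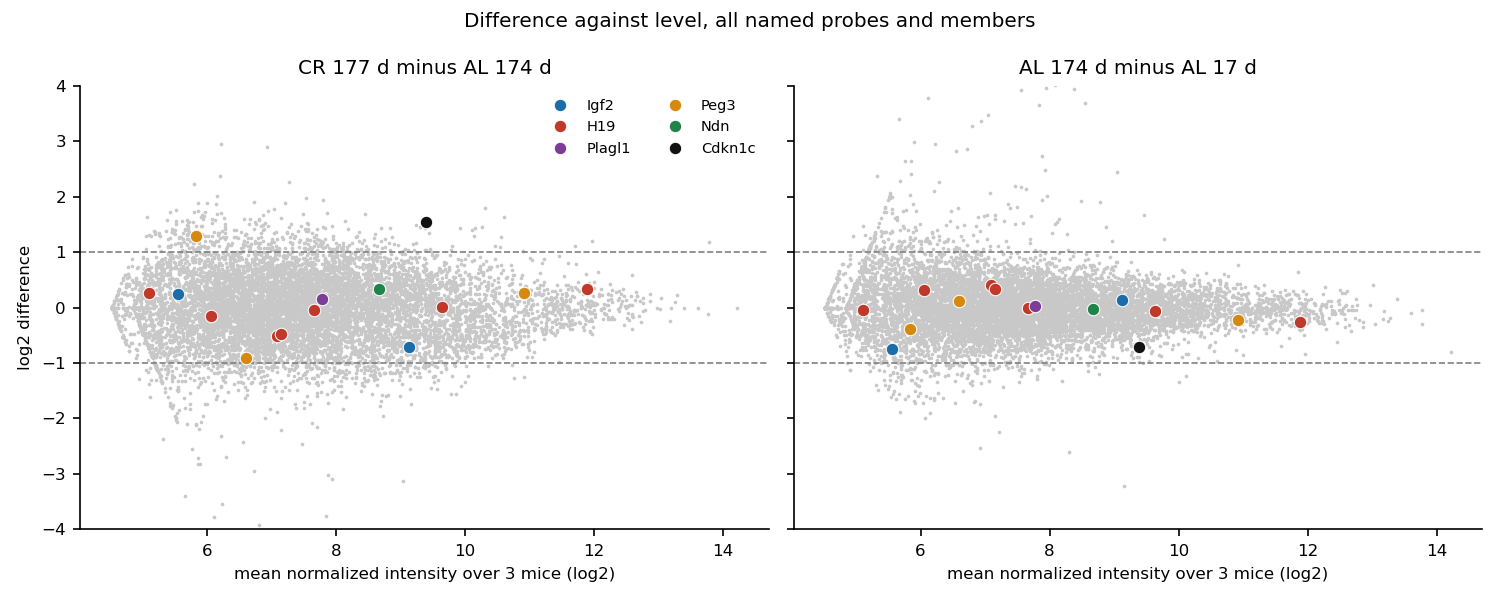
Log2 difference (vertical) against mean normalized log2 intensity over the 3 mice (horizontal) for 9663 named probes (grey) and the 15 member probes (coloured), by diet on the left and by age on the right; dashed lines mark 2-fold, and 13 and 11 probes lie beyond the plotted range of 4. The spread of the grey points narrows towards bright spots, Cdkn1c (1.55 by diet) lies at its upper edge, and the 2 brightest H19 spots (0.34 and 0.01 by diet) lie inside it.

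Genes tied to the members were read as the median over all their probes. The share of all 7151 genes past 2-fold on the higher side was 3.06% by diet, 1.96% by age and 0.378% in the third comparison. On the lower side it was 4.38% by diet, 1.26% by age and 0.755% in the third comparison. The gene lists were chosen with earlier results of these data known. Their counts are given as a description.

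Of 14 genes of the imprinted gene network, a set of imprinted genes known to be expressed together in the mouse, 7 were measured, 6 of them only by dim spots. None was 2-fold apart by age or diet. Their median was -0.03 by age, -0.52 by diet and -0.36 in the third comparison, where the median of all genes was -0.03. After the correction for spot position the diet median was -0.16 and the third -0.26. In the third comparison Meg3, a maternal noncoding RNA, was lower by more than 2-fold at -1.18, and was at -0.63 by age and -0.56 by diet, on a spot at the 13.9th percentile of level. Of 45 other imprinted genes, 22 were measured. Phlda2, which restrains placental growth, was 1.05 higher by diet (0.93 after the correction for position), and Tssc4 was at -1.01 (-0.59 after it). Their values by age were -0.45 and 0.59.

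Of 15 genes for IGF2 receptors, binding proteins and signalling, 7 were measured. Igfbp3, a carrier of insulin-like growth factors in blood, was at -1.19 by diet, and Irs1, an adaptor of the insulin and IGF1 receptors, at -1.13. After the correction for spot position they were at -0.35 and -0.22. Igfbp4, another binding protein, was in the other direction at 1.00 by diet, just under 2-fold, and at 0.91 after the correction. Igf1r, the receptor through which IGF2 acts on growth, was at 0.00 by age and 0.09 by diet, on a spot below the 50th percentile. Of the proteins that bind Igf2 and H19 RNA or process H19 into its microRNA, 5 of 9 were measured and none was 2-fold apart. Igf2bp1, a fetal binding protein of Igf2 RNA, was at -0.07 by age and 0.06 by diet over 5 spots, Elavl1 at -0.19 and 0.53, Khsrp at 0.52 and 0.01, Drosha at -0.03 and 0.13, and Dgcr8 at 0.45 and -0.44.

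Of 21 genes that set or keep imprints, 18 were measured, with a median of -0.04 by age and 0.07 by diet. Zfp57 and Zfp445, zinc finger proteins that protect imprints in the embryo, differed in opposite directions: Zfp57 was at -0.99 by age and 1.43 by diet, and Zfp445 at 0.55 and -1.07. After the correction for position their diet values were 0.89 and -0.26. Dnmt3b was at the floor in all 3 mice and has no order there.

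Of 13 cyclins and kinases that p57 binds or that mark the same cycle steps, 10 were measured. Cdk1, the mitotic kinase, was 1.44 higher by diet (1.51 after the correction for position, 0.98 with each array centred on its median) and at -0.84 by age, on 1 bright spot. The other 9 were within 2-fold, and the list's median was -0.09 by age and 0.02 by diet, or 0.02 and -0.12 after the correction. Among other genes named as inhibitors of cyclin-dependent kinases, 3 of 7 were measured and within 2-fold. Cdkn1b, which encodes p27, was at -0.56 by age and 0.57 by diet, Cdkn2c at 0.05 and -0.08 and Cdkn3 at 0.01 and -0.17. Of 11 protein partners of necdin and PEG3, 5 were measured and within 2-fold, from -0.57 (Maged1) to 0.28 (Siah2) by diet. Siah1a was at 0.35 by age, Nucb2 at 0.11 and Nsmce1 at -0.04.

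Of 13 fetal liver genes, 7 were measured, with a median of 0.06 by age and -0.07 by diet. Hba-x, an embryonic globin gene, was at -1.05 by diet and 0.68 by age on a dim spot. None was 2-fold apart by age.

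**Figure D4:**
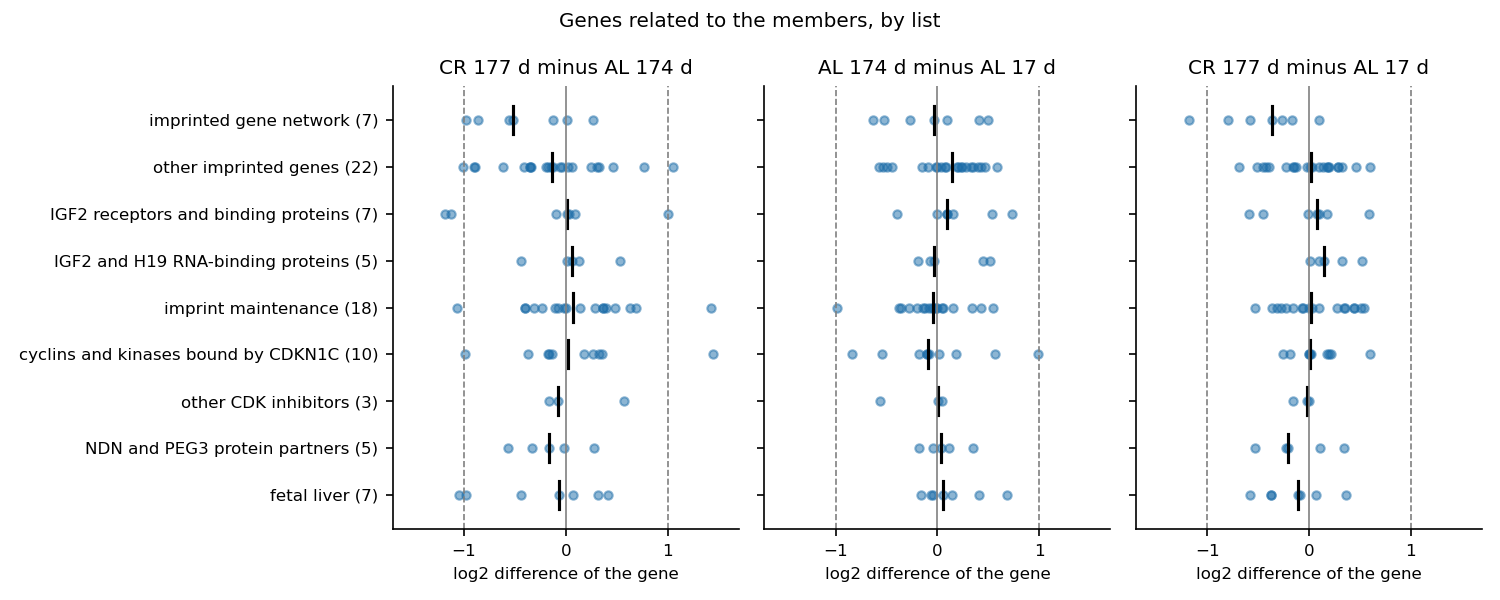
Log2 difference of each measured gene (dots, median over its probes) in 9 gene lists tied to the members, with the number measured in parentheses, by diet, by age and in the third comparison; black bars are list medians and dashed lines mark 2-fold. Most genes lie between the dashed lines, and the imprinted gene network has the lowest median by diet (-0.52, and -0.16 after the correction for spot position).

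The genes whose pattern over the 3 mice was nearest to each member were found by Euclidean distance between centred log2 values, among 3859 genes with a spot above the 50th percentile. With only 3 mice many genes come close: 242 genes lay within 0.1 of H19, 236 of Peg3, 210 of Plagl1, 151 of Ndn, 54 of Igf2 and 1 of Cdkn1c. The nearest were Banp and Apoa1 for H19 (0.0324 each), Appl1 (0.00406) and Prnp (0.00665) for Peg3, Adnp2 (0.0101) and Tsacc (0.016) for Plagl1, Efl1 (0.00961) and Ak4 (0.0114) for Ndn, and Map4k5 (0.00811) and Metap1 (0.00935) for Igf2. For Cdkn1c they were Oxsm (0.097) and Rbbp9 (0.101).

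**Figure D5:**
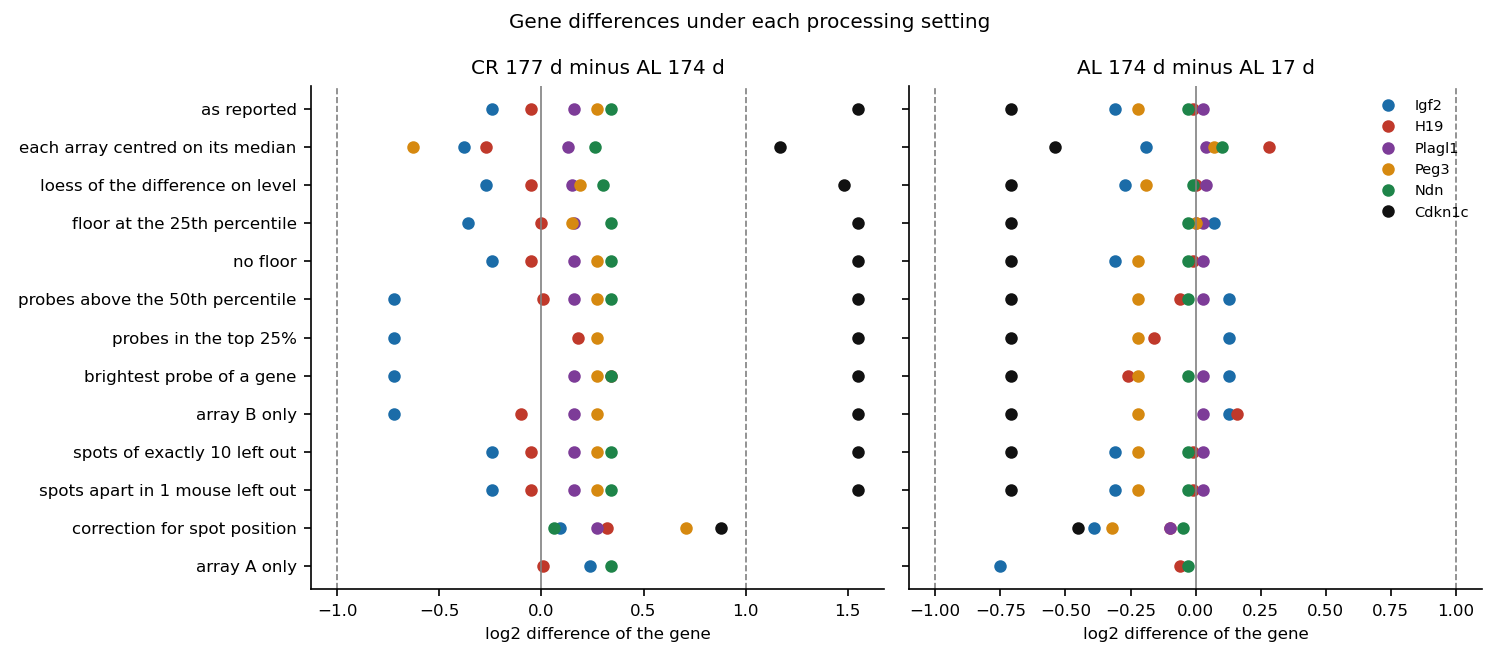
Log2 difference of each of the 6 genes (colours) under the values as reported and 12 alternative settings (rows), by diet on the left and by age on the right; dashed lines mark 2-fold, a missing dot means that no probe of the gene was left, and the setting without scaling is not drawn. Cdkn1c stays to the right of 0 by diet, from 0.88 to 1.55, and to the left by age, while the other genes lie between the dashed lines.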

How the data were processed

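Total RNA of 3 livers was measured on 2 array kinds, with 8448 spots each. The deposited values, all positive and right-skewed, were taken to be linear spot intensity. How the authors labelled, scanned, background-corrected or scaled them is not given in the sources used here, so background may remain and may distort differences between dim spots. The number of arrays limits the precision.

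Spots were named through GEO's platform annotation: of 16896, 9663 had 1 symbol, 436 several and 6797 none. Through the gene number, 9641 matched RefSeq (GRCm38.p6) and 0 symbols differed. All columns belonged to a labelled mouse.

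Values under an array's 5th percentile were set to it, and log2 values were then quantile-normalized, separately for array A and array B. A gene took the median over all its probes. With 1 mouse per group there was no test, and a call means at least 2-fold. Alternatives were other scalings (median centring, none, loess with span 0.3), a floor at the 25th percentile or none, probes above the 50th or 75th percentile of level, the brightest probe, a threshold of 1.5-fold, single array kinds, spots of exactly 10 or at least 1.5 log2 apart in 1 mouse left out, and spot position. For position, spots in file order were cut into 16 blocks of 528, and the median deviation per block and then per place within blocks was subtracted; the block length was the divisor at whose lag differences between mice correlated most. Named were the members, list genes at least 2-fold apart (otherwise the 2 highest and 2 lowest by age and by diet) and the 2 nearest patterns per member. Igf1r, Igfbp4, Dnmt3b, the hepatocyte genes and the Kupffer cell and leukocyte genes were named after their values were seen. The members and lists were chosen with earlier results of these data known. The procedure was tested on simulated data modelled on array B alone. Changes larger than any member difference were planted there on spots brighter than the median. The simulation therefore does not show how well smaller differences or differences on dim spots are recovered. Python 3.11.15, numpy 2.4.6, pandas 2.3.3, statsmodels 0.14.6 and matplotlib 3.10.9 were used.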

Additional observations from a re-analysis of the deposited data

How the results depend on the processing

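No paired analysis was possible because each group held 1 mouse, and no mouse could be left out. Of the 15 member probes, the number at least 2-fold apart stayed at 0 by age and in the third comparison and at 2 by diet, except as follows. By diet it was 1 of 15 with a floor at the 25th percentile, where 5.43% of all named probes were past 2-fold. After the correction for position it was also 1 of 15, where 5.69% were. With probes above the 50th percentile it was 1 of 8 (7.65% of named probes), and above the 75th 1 of 5 (4.93%). On array A, where 3 genes have no probe, it was 0 of 3 (10.5%). At 1.5-fold it was 4 of 15 by diet, 2 by age and 4 in the third comparison. Of all named probes, 32.4%, 17.4% and 14.2% were past 1.5-fold in the same order. Without scaling, all 15 were past 2-fold by age and by diet, as were 99.7% and 99.3% of all named probes. In the third comparison 1 was, where 2.98% of all named probes were. The median of all named probes itself was then -2.91 by age and 2.75 by diet. The median of the 6 gene differences was -2.96 by age and 2.56 by diet. With median centring all named probes had a median of -0.11 by diet. In the settings that scaled the arrays, the median of the 6 gene differences moved by less than the pooled SD between probes of a gene, but its sign turned: by diet it was 0.22 and became -0.07 with median centring, by age it was -0.12 and became 0.05 with median centring and 0.03 on array B, and in the third comparison it was 0.12 and became -0.04 on array A. Plagl1 and Ndn had no probe in the top 25% by level. Dim spots limit Igf2, Peg3 and H19, of whose 12 spots 7 lay below the 50th percentile, and 1 spot each limits Plagl1, Ndn and Cdkn1c.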
